A study of Phyllostachys edulis with 34 samples.

Results

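In young leaves of moso bamboo (Phyllostachys edulis) seedlings, 26 of the 59091 genes in the expression table were upregulated by polyethylene glycol (PEG) and downregulated by salicylic acid (SA) after 3 h, both relative to the control of that time point. The members were chosen on mean FPKM, the number of sequenced fragments scaled by gene length and by library size. For each group R was defined as log2((group mean + 1)/(CK 3h mean + 1)), and a gene was kept where R was at least 1.5 in PEG 3h and at most -1.5 in SA 3h. Genes of the study's lists of cinnamyl alcohol dehydrogenases and other lignin genes were to be left out, but 0 of the 159 such genes in the table met both conditions. Of all genes, 1365 met the PEG condition and 1844 met the SA condition. Of the 1365 genes, 727 reached 1.5 in SA 3h as well. The mirror pattern, at least 1.5 in SA 3h and at most -1.5 in PEG 3h, was shown by 11 genes.

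The seedlings were 30 days old, were grown in diluted Hoagland nutrient solution, and received 25% PEG, 200 mM NaCl, 1 mM SA or 1 µM abscisic acid (ABA) in that solution. Leaves were labelled CK, PEG, NaCl, SA or ABA at 3h and at 24h, with 3 libraries in each of these 10 groups, and 4 further libraries were labelled 0h. The labels do not say what CK stands for, and it is taken as the control without treatment at each time. No genotype, ecotype or transgene is given in the labels, and poly-A RNA of whole leaves was sequenced in all groups, so fewer cells of a type and less RNA per cell cannot be told apart.

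PEG in the nutrient solution holds back water from the roots and is a common way to impose osmotic, drought-like stress. NaCl combines such an osmotic component with ion toxicity. ABA is the hormone that plants accumulate when they lose water, and in Arabidopsis its receptors release SnRK2 kinases from inhibition by type 2C protein phosphatases, so that bZIP transcription factors switch on water-deficit genes. SA is the hormone of defence against biotrophic pathogens, acting in Arabidopsis through NPR1, and antagonism between the SA and ABA pathways is well known there. The deposited tables do not pair the gene IDs with names or products, so the members are given by ID, with no role, sequence or position, and the labelled tissue was not checked against marker genes.

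Each library held 28153302 to 51695158 counts. 1 library stood apart from its label. The library labelled 0h replicate 1 had a Spearman rho of 0.713 to 0.715 with the other 0h libraries over 16877 genes and of 0.964 to 0.973 with the libraries labelled ABA 24h, whereas every other library had a rho of at least 0.949 with its own group when that library was left aside. Because of this the 0h libraries are outside the main model, ABA 24h is referred to by its label, and results that rest on either are given with the alternatives. Replicates of the members were otherwise close, with a median coefficient of variation over the 26 genes between 3.90% in PEG 24h and 20.8% in the libraries labelled ABA 24h. A single member, Phyllostachys_edulis_newGene_32056 (below newGene_32056), varied between replicates by far more than the others and is treated separately.

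The values that chose the members are given as a description, with no test. R in PEG 3h ranged from 1.63 to 7.05 with a median of 2.40, and R in SA 3h ranged from -3.27 to -1.501 with a median of -1.83. Just inside the thresholds lay PH02Gene33633, with R of 2.13 in PEG 3h and -1.501 in SA 3h, and PH02Gene48279, with R of 3.28 and -1.503. Just outside lay PH02Gene21447, with R of 1.75 and -1.497, and PH02Gene05013, with R of 1.47 and -2.79. In the count model, 25 of the 26 members were higher in PEG 3h than in CK 3h, where 13.3% of all tested genes were called higher, and 25 were lower in SA 3h, where 14.3% of all tested genes were called lower. The rule used both contrasts, so nothing is read from these counts. newGene_32056 was called in neither. For PH02Gene33633 and PH02Gene48279 the count model gave log2 fold changes of -1.15 and -1.32 in SA 3h, smaller falls than their R. Over all members its median there was -2.17.

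PH02Gene28670 had the largest difference between the 2 treatments. Its level was 5.21, 5.74 and 5.25 FPKM in the CK 3h libraries, 716, 1042 and 791 FPKM in PEG 3h, and 0.662, 0.317 and 0.548 FPKM in SA 3h. PH02Gene25695 came next, with 22.6, 21.7 and 20.5 FPKM in CK 3h, 564, 848 and 619 FPKM in PEG 3h, and 1.13, 1.23 and 1.65 FPKM in SA 3h. For both genes the 3 groups were far apart and no library of one reached the range of another. The 2 members with the highest mean in PEG 3h were newGene_32056, at 2169, 5690 and 3090 FPKM, and PH02Gene33633, at 1069, 1149 and 1080 FPKM. PH02Gene33633 was abundant in every group, with 252, 244 and 253 FPKM in CK 3h and 85.2, 88.7 and 88.8 FPKM in SA 3h.

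Across all 11 groups the median level of the members ran from SA 3h at the bottom to PEG 3h and NaCl 24h at the top, an order that single members did not all follow. The median FPKM over the 26 genes was 1.85 to 2.51 in the SA 3h libraries, 12.3 to 13.9 in CK 3h and 9.68 to 14.3 in CK 24h. It was 16.2 to 20.1 in the libraries labelled ABA 24h, 20.8 to 23.5 in SA 24h, 21.2 to 25.0 in NaCl 3h and 31.6 to 40.9 in ABA 3h. It reached 53.0 to 54.2 in PEG 24h, 77.9 to 99.3 in PEG 3h and 92.1 to 97.5 in NaCl 24h. Neighbours that overlapped in this order were CK 3h and CK 24h, SA 24h and NaCl 3h, and PEG 3h and NaCl 24h, and the libraries labelled 0h overlapped ABA 3h at 31.8 to 38.9 apart from replicate 1, which lay at 17.8. Over the 27760 genes with a mean of at least 1 FPKM the median per library stayed between 4.98 and 6.82 FPKM. PEG 3h and SA 3h stand at the ends of this order by the choice of the members, but NaCl 24h was not used by the rule.

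**Figure D1:**
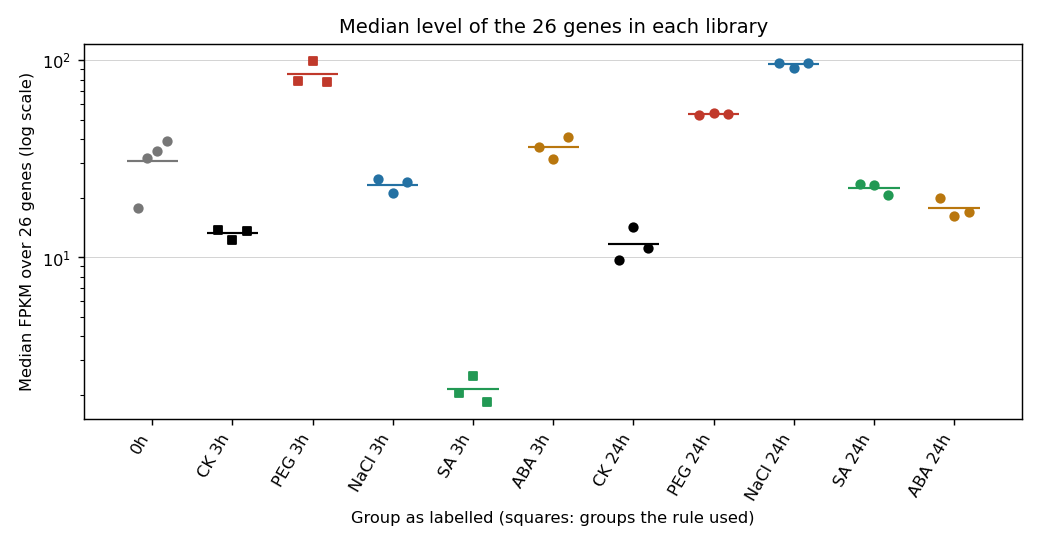
Median FPKM over the 26 genes in each library (vertical axis, log scale) by group as labelled (horizontal axis). Points are single libraries, short lines are the mean of the library medians, and squares mark CK 3h, PEG 3h and SA 3h, which the rule used. SA 3h lies at 1.85 to 2.51, and NaCl 24h at 92.1 to 97.5 overlaps PEG 3h.

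By group mean, 13 members had their highest level in PEG 3h, 7 in NaCl 24h, 3 in ABA 3h, 2 in the libraries labelled 0h and 1 in PEG 24h. With 0h replicate 1 left out, PEG 3h held 12 and 0h held 3. The lowest level was in SA 3h for 25 members and in NaCl 3h for newGene_32056. With 0h replicate 1 left out, SA 3h was lowest for 24 members and 0h for PH02Gene40564.

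**Figure D2:**
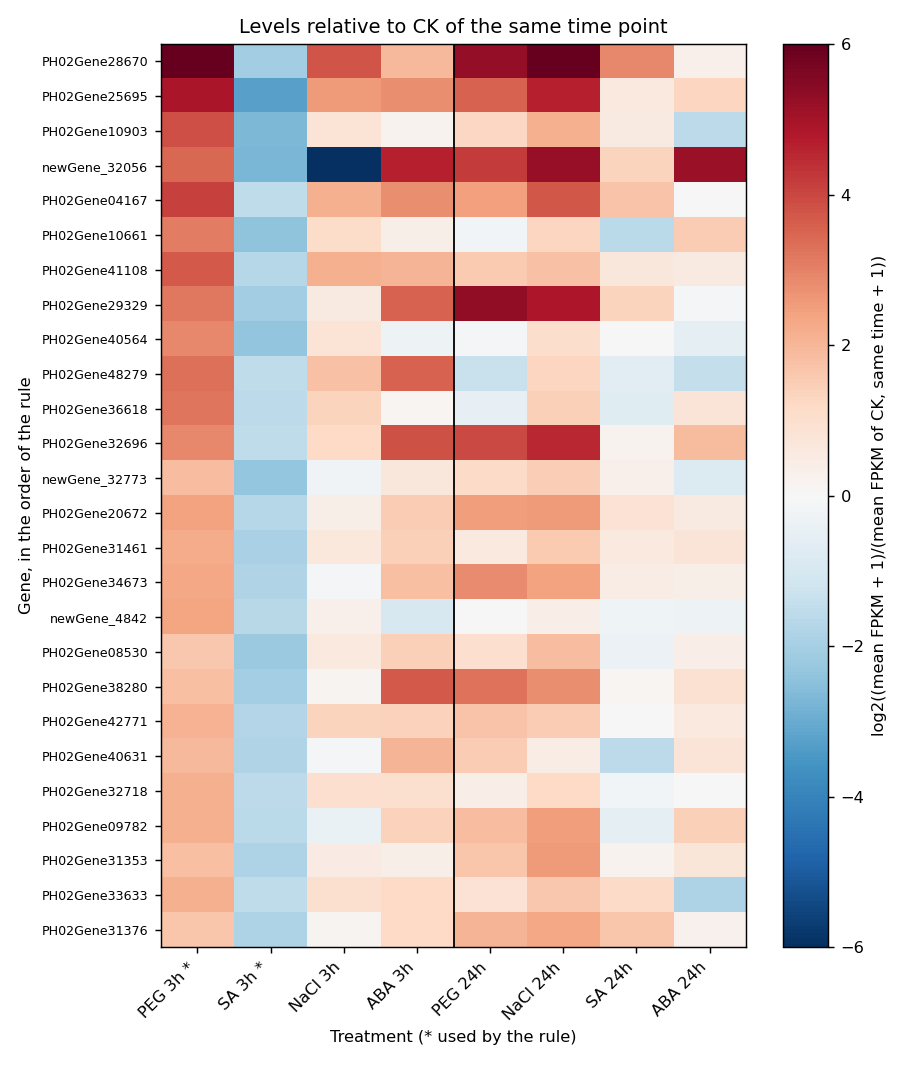
Log2 ratio of mean FPKM to that of CK at the same time, each with 1 FPKM added, for the 26 genes (rows, in order of the difference between PEG 3h and SA 3h) in 8 treatments (columns). Red is higher and blue lower than CK, the color scale stops at a size of 6 so that larger ratios are shown at its end, and asterisks mark the columns the rule used. All 26 rows are red in NaCl 24h, and the SA 24h and ABA 24h columns hold both colors.

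After 24 h of PEG most members were still higher than in the control. 18 of the 26 were called higher than in CK 24h and 1 was called lower, at an adjusted p under 0.05 and at least 2-fold, against 6.72% of the 39089 tested genes called higher and 9.58% called lower. The median log2 fold change was 1.92 over the members and -0.05 over all tested genes. Those called higher changed by 1.03 to 5.96 on the log2 scale, and the 7 that were not called lay between -0.39 and 4.52, the upper value being newGene_32056 at an edgeR adjusted p of 0.0685.

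PH02Gene28670 was at 128, 125 and 127 FPKM in PEG 24h and at 3.14, 1.87 and 1.85 FPKM in CK 24h. This was the largest rise among the called members, 5.96 ± 0.26 on the log2 scale (SE, n = 3 and 3, edgeR adjusted p = 3.68e-16), yet every PEG 24h library lay below every PEG 3h library. PH02Gene29329 was at 362, 344 and 358 FPKM in PEG 24h and at 7.54, 8.82 and 7.30 FPKM in CK 24h, a log2 fold change of 5.66 ± 0.24 (edgeR adjusted p = 1.40e-16). Here the order in time was the opposite, since PEG 3h held only 30.8, 60.7 and 36.9 FPKM. PH02Gene32696 likewise stood higher at 24h, with 44.4, 42.7 and 36.8 FPKM in PEG 24h, 20.3, 29.9 and 22.3 FPKM in PEG 3h, and 1.76, 1.49 and 1.95 FPKM in CK 24h.

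The member called lower was PH02Gene48279. It had 24.2, 24.8 and 25.9 FPKM in PEG 24h and 63.2, 65.1 and 64.8 FPKM in CK 24h, a log2 fold change of -1.19 ± 0.10 (edgeR adjusted p = 2.97e-10). The groups did not overlap. Its control was itself higher at 24h than at 3h, where CK held 14.5, 16.1 and 15.3 FPKM, and PEG 3h held 134, 195 and 144 FPKM. PH02Gene10661 was back near its control in PEG 24h, at 62.5, 62.2 and 61.8 FPKM against 67.1, 75.4 and 68.0 FPKM, after 395, 512 and 412 FPKM in PEG 3h. The count model gave it a log2 fold change of 0.00 ± 0.09 in PEG 24h (edgeR adjusted p = 0.992).

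In NaCl 24h the rise covered nearly the whole set. 24 of the 26 members were called higher than in CK 24h and 0 were called lower by edgeR, with 14.2% of all tested genes called higher and 15.4% called lower. DESeq2 also called 24 higher and 0 lower, and 0 members were lower at an unadjusted p under 0.05. The median log2 fold change was 2.11 over the members and -0.07 over all tested genes. Members called higher changed by 1.26 to 7.78 on the log2 scale. The other 2 were PH02Gene40631 and newGene_4842, with 0.68 and 0.51.

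In the NaCl 24h libraries PH02Gene28670 reached 503, 441 and 470.1 FPKM, a log2 fold change of 7.78 ± 0.28 against CK 24h (edgeR adjusted p = 1.73e-18). PH02Gene25695 was at 581, 535 and 562 FPKM there and at 21.9, 22.3 and 19.8 FPKM in CK 24h, 4.81 ± 0.21 on the log2 scale (edgeR adjusted p = 7.54e-17). For PH02Gene28670 every NaCl 24h library lay below the PEG 3h libraries, whereas for PH02Gene25695 one NaCl 24h library lay within their range. PH02Gene33633, the most abundant of the members with stable replicates, had its highest level in NaCl 24h, at 1585, 1446 and 1530 FPKM against 509.9, 503 and 488 FPKM in CK 24h. PH02Gene48279, lower than its control in PEG 24h, was higher in NaCl 24h, at 164, 148 and 161 FPKM (log2 fold change 1.39 ± 0.10, edgeR adjusted p = 5.16e-12). PEG 24h and NaCl 24h are both set against the same CK 24h libraries, so their counts are not independent of each other.

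**Figure D3:**
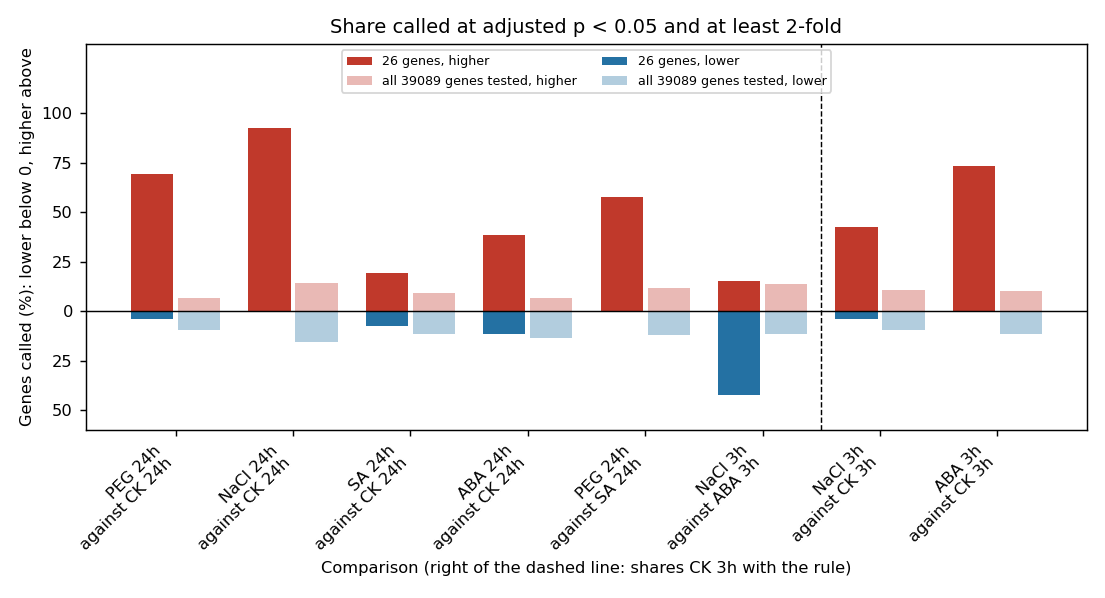
Percentage of genes called higher (above 0) or lower (below 0) at an adjusted p under 0.05 and at least 2-fold in 8 comparisons. Dark bars are the 26 genes, pale bars all 39089 tested genes, and comparisons right of the dashed line share CK 3h with the rule. The dark bar for NaCl 24h against CK 24h is at 92.3% beside a pale bar at 14.2%.

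At 24h most members were not called different from the control under SA. Against CK 24h, 5 of the 26 were called higher in SA 24h and 2 were called lower, where 9.03% of all tested genes were called higher and 11.7% lower. The median log2 fold change of the members was 0.30, with 19 members not called. Those 19 lay between -0.96 and 1.73 on the log2 scale, and not called does not mean unchanged. At an unadjusted p under 0.05 in edgeR, 12 of the 26 members were higher and 7 lower, the called ones included.

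PH02Gene28670 went from the lowest of its levels in SA 3h to 24.3, 25.4 and 20.5 FPKM in SA 24h, above every CK 24h library (log2 fold change 3.29 ± 0.25, edgeR adjusted p = 1.15e-11). PH02Gene04167 moved the same way. It had 0.802, 0.742 and 0.407 FPKM in SA 3h, 32.4, 30.7 and 30.5 FPKM in SA 24h, and 9.35, 7.90 and 8.90 FPKM in CK 24h, a log2 fold change of 1.78 ± 0.18 at 24h (edgeR adjusted p = 2.68e-09). PH02Gene33633 was also high in SA 24h, at 1127, 1112 and 1097 FPKM, within the range of its PEG 3h libraries and with no overlap with CK 24h (log2 fold change 1.10 ± 0.11, edgeR adjusted p = 1.64e-09).

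The 2 members that were still lower in SA 24h were PH02Gene40631 and PH02Gene10661. PH02Gene40631 had 0.405, 0.293 and 0.282 FPKM in SA 24h and 3.53, 2.74 and 2.63 FPKM in CK 24h, a log2 fold change of -3.21 ± 0.33 (edgeR adjusted p = 3.91e-09). In SA 3h it had 0.111 and 0.188 FPKM in replicates 1 and 2 and 0 counts in replicate 3, which allows up to 0.0422 FPKM at 3 counts. In SA 24h its counts were 23, 16 and 18, above that limit. PH02Gene10661 had 22.7, 21.01 and 23.6 FPKM in SA 24h, 0.308 times the level of CK 24h in the count model (log2 fold change -1.70 ± 0.10, edgeR adjusted p = 4.49e-14), and 8.57, 8.67 and 9.28 FPKM in SA 3h.

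PEG and SA were set against each other at 24h directly, with no control and no library of the rule. Of the 26 members, 15 were called higher in PEG 24h than in SA 24h and 0 were called lower by edgeR, where 11.9% of all tested genes were called higher and 11.8% lower. DESeq2 gave the same 2 counts. In edgeR 1 member was lower at an unadjusted p under 0.05, PH02Gene48279. Its log2 difference of -0.43 also passed adjustment (edgeR adjusted p = 1.13e-03) but was short of 2-fold. The median log2 difference was 1.65 over the members and 0.00 over all tested genes. The 11 members that were not called lay at -0.43 to 2.79. Among the 1818 tested genes that met only the SA condition, 50.7% were called higher in PEG 24h than in SA 24h. A high share was therefore not particular to the members, at 57.7%. This comparison does not involve CK, and PH02Gene28670 and PH02Gene29329, both called higher in PEG 24h than in SA 24h, were also called higher in SA 24h than in CK 24h, by 3.29 and 1.38 on the log2 scale.

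PH02Gene40631 differed most, with 9.78, 9.97 and 11.3 FPKM in PEG 24h, a log2 difference of 5.19 ± 0.33 from SA 24h (edgeR adjusted p = 2.61e-13). PH02Gene32696 was at 2.58, 2.26 and 1.78 FPKM in SA 24h, so PEG 24h exceeded it by 4.46 ± 0.21 on the log2 scale (edgeR adjusted p = 4.48e-16). No libraries overlapped for either gene. In contrast PH02Gene33633 had 919.9, 876 and 918 FPKM in PEG 24h, below its SA 24h libraries in FPKM, and the count model gave a log2 difference of -0.06 ± 0.10 that did not pass (edgeR adjusted p = 0.664). PH02Gene04167 lay at the edge of the fold threshold, with a log2 difference of 1.00 that was just under 2-fold at 1.999 (edgeR adjusted p = 1.50e-05).

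**Figure D4:**
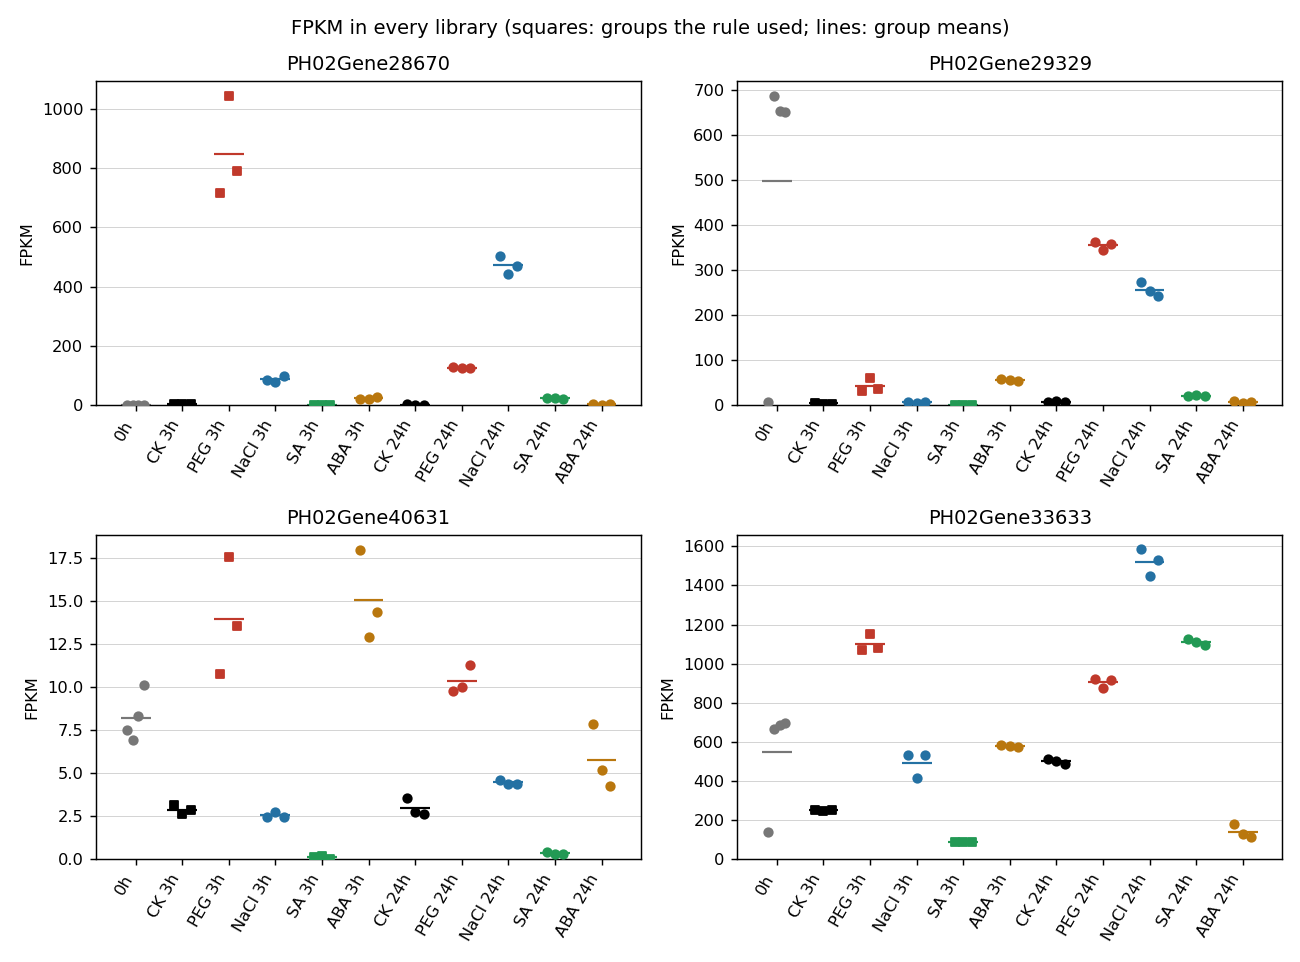
FPKM of PH02Gene28670, PH02Gene29329, PH02Gene40631 and PH02Gene33633 in every library (vertical axes, linear from 0) by group as labelled (horizontal axes), with lines at group means and squares for groups the rule used. PH02Gene40631 is at 0.282 to 0.405 in SA 24h, whereas PH02Gene33633 is at 1097 to 1127 there. In the 0h column of PH02Gene29329 the single low point is replicate 1.

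NaCl 3h and ABA 3h were not used by the rule, although their comparisons with the control share the CK 3h libraries with it. Against CK 3h, 19 of the 26 members were called higher in ABA 3h and 0 lower by edgeR, with 10.4% of all tested genes called higher and 11.4% lower. DESeq2 gave the same 2 counts. In edgeR 1 member was lower at an unadjusted p under 0.05, newGene_4842. Its log2 fold change of -0.91 also passed adjustment (edgeR adjusted p = 8.33e-06) but was short of 2-fold. Against the same CK 3h libraries, 11 members were called higher in NaCl 3h and 1 was called lower, with 10.9% of all tested genes called higher and 9.64% lower. Median log2 fold changes were 1.71 for ABA 3h and 0.82 for NaCl 3h. A high chance level or a low one in the CK 3h libraries would enter the choice of members and these values alike, so they are given as a description.

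Set against each other, with no control involved, NaCl 3h was lower than ABA 3h for 11 members and higher for 4, where 11.7% of all tested genes were called lower and 13.7% higher. The 42.3% of members called lower was close to the 42.6% among the 1818 tested genes that met only the SA condition, so it was not particular to the members. The median log2 difference was -0.86 over the members and 0.02 over all tested genes. Apart from newGene_32056, the member with the largest difference was PH02Gene38280, at 14.02, 13.01 and 16.7 FPKM in NaCl 3h and 193, 175 and 169 FPKM in ABA 3h (log2 difference -3.71 ± 0.15, edgeR adjusted p = 1.39e-16). Its NaCl 3h libraries were close to CK 3h, at 13.4, 12.3 and 13.2 FPKM. PH02Gene48279 also stood high in ABA 3h, at 189, 189.6 and 185 FPKM against 59.6, 48.6 and 56.7 FPKM in NaCl 3h.

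Among the 4 members that were higher in NaCl 3h, PH02Gene28670 had 85.4, 78.8 and 97.7 FPKM there and 21.4, 21.6 and 27.04 FPKM in ABA 3h (log2 difference 1.80 ± 0.21, edgeR adjusted p = 6.24e-08). Phyllostachys_edulis_newGene_4842 had 27.4, 24.2 and 27.01 FPKM in NaCl 3h and 7.36, 14.1 and 8.72 FPKM in ABA 3h (log2 difference 1.28 ± 0.14, edgeR adjusted p = 3.17e-08). The groups did not overlap in either case. For newGene_4842 the ABA 3h libraries lay below CK 3h, at 20.6, 20.6 and 20.9 FPKM, so it was high in PEG 3h at 116, 107 and 108 FPKM without being high in ABA 3h.

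**Figure D5:**
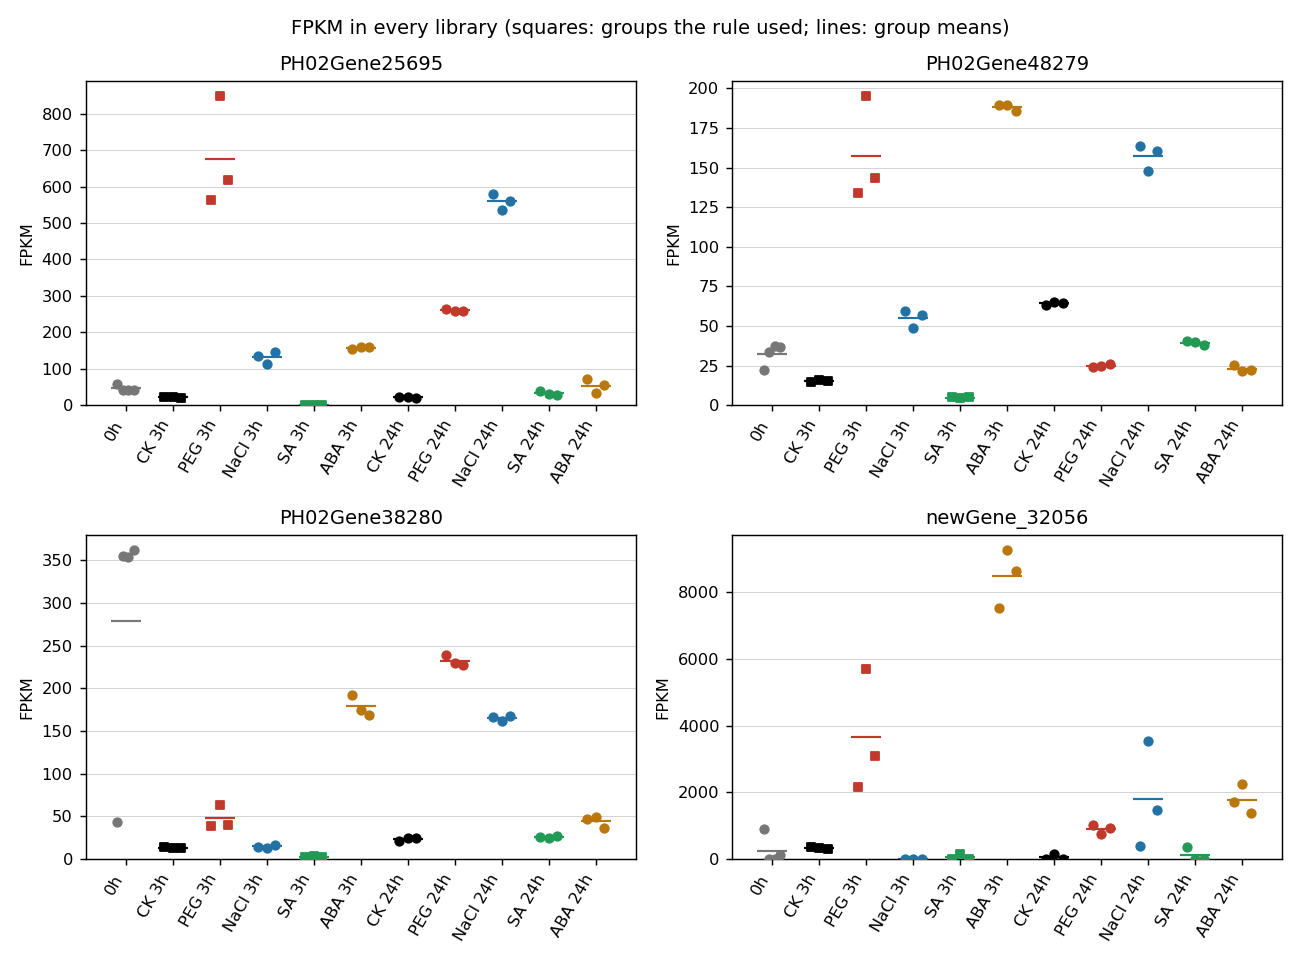
FPKM of PH02Gene25695, PH02Gene48279, PH02Gene38280 and newGene_32056 in every library (vertical axes, linear from 0) by group as labelled (horizontal axes), with lines at group means and squares for groups the rule used. PH02Gene38280 is at 13.01 to 16.7 in NaCl 3h and at 169 to 193 in ABA 3h. newGene_32056 reaches 7536 to 9270 in ABA 3h and spreads widely in PEG 3h and NaCl 24h.

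The libraries labelled ABA 24h were less far from their control. Against CK 24h, 10 of the 26 members were called higher and 3 lower, where 6.51% of all tested genes were called higher and 13.7% lower, and the median log2 fold change was 0.78. On log2(FPKM + 1) with limma the same comparison gave 5 higher and 3 lower. PH02Gene32696 was at 9.12, 8.58 and 10.3 FPKM, above every CK 24h library (log2 fold change 2.72 ± 0.21, edgeR adjusted p = 2.29e-11). PH02Gene33633 was at 178, 129 and 109.9 FPKM, below every CK 24h library (log2 fold change -1.55 ± 0.11, edgeR adjusted p = 3.89e-12). PH02Gene10903 was at 36.5, 22.5 and 25.1 FPKM against 84.4, 90.3 and 81.3 FPKM in CK 24h (log2 fold change -1.31 ± 0.14, edgeR adjusted p = 1.20e-08).

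Because 0h replicate 1 resembled these libraries, the comparison was repeated with 0h replicates 2 to 4 in place of ABA 24h, an alternative added after seeing the data. It gave 13 members higher and 5 lower than CK 24h, where 7.43% of all tested genes were called higher and 9.41% lower, with a median log2 difference of 1.03 over the members. 6 of the 10 higher calls and 0 of the 3 lower calls made with ABA 24h were among them. PH02Gene10661 and PH02Gene36618, called higher with ABA 24h, were called lower here, going from 1.83 to -1.70 and from 1.19 to -1.60 on the log2 scale. PH02Gene33633 went from -1.55 to 0.44 on the log2 scale, newGene_32056 from 5.61 to 0.00, and PH02Gene10903 from -1.31 to -0.98, which was short of 2-fold, while PH02Gene32696 stayed higher at 4.79. PH02Gene29329 had 685, 652 and 651 FPKM in 0h replicates 2 to 4, its highest level in any group, and 6.64 FPKM in replicate 1, inside the range of the ABA 24h libraries at 9.18, 5.26 and 7.16 FPKM. PH02Gene38280 had 355, 354 and 362 FPKM in 0h replicates 2 to 4 and 43.2 FPKM in replicate 1, again within the ABA 24h libraries at 47.2, 49.5 and 36.5 FPKM. PH02Gene10661 was the reverse, with 22.2, 21.5 and 21.6 FPKM in replicates 2 to 4, 190.03 FPKM in replicate 1, and 213, 187 and 211 FPKM in ABA 24h. Whether labels were exchanged was not tested.

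newGene_32056 was the least stable member. In CK 24h it had 3.82, 139 and 0 FPKM, in SA 3h 1.90, 141 and 0 FPKM, and in SA 24h 369.8, 0 and 0 FPKM, where 0 counts allow up to 0.0406 to 0.0539 FPKM at 3 counts per library. In NaCl 24h it had 394, 3549 and 1455 FPKM, so replicates of one treatment differed by as much as treatments of other members did. Its levels were less spread in CK 3h, at 359, 321 and 308 FPKM, in NaCl 3h, at 3.17, 1.74 and 3.79 FPKM, and in ABA 3h, at 7536, 9270 and 8649 FPKM. Groups of the latter kind did not overlap, and NaCl 3h was lower than ABA 3h by a log2 difference of -11.73 ± 2.63 (edgeR adjusted p = 5.34e-04).

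Its rise in NaCl 24h was 5.63 ± 2.03 on the log2 scale (edgeR adjusted p = 0.0212), and the adjusted p was 0.0747 with CK 24h replicate 1 left out, 0.0633 with CK 24h replicate 3 left out and 0.0620 with NaCl 24h replicate 2 left out. Its rise in ABA 24h was 5.61 ± 2.03 (edgeR adjusted p = 0.0257), and the adjusted p was 0.0894 with CK 24h replicate 1 left out and 0.0762 with replicate 3 left out. For ABA 3h against CK 3h the adjusted p rose from 0.0434 to between 0.0544 and 0.114 when any of the 6 libraries was left out. For NaCl 3h against CK 3h, where it was the member called lower, the adjusted p went from 0.0119 to 0.0504 without NaCl 3h replicate 2. Each of these 4 calls was thus lost when a single library was left out. Over the other 25 members the counts were 18 higher and 1 lower for PEG 24h, 23 and 0 for NaCl 24h, 5 and 2 for SA 24h, 9 and 3 for ABA 24h, 15 and 0 in PEG 24h against SA 24h, and 4 and 10 in NaCl 3h against ABA 3h.

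The members were also described by length and ID, which the rule did not use, and by their level in CK 3h, which it did. Their length, as implied by the ratio of counts to FPKM, had a median of 1521 bases and ranged from 463 to 3046 bases, beside a median of 1525 bases over 49037 genes. 3 of the 26, or 11.5%, carried newGene IDs, beside 13.8% of all genes in the table. No 2 members had consecutive ID numbers. Their mean level in CK 3h ranged from 2.46 to 329.5 FPKM with a median of 13.1, beside 6.66 over the 27763 genes with at least 1 FPKM there. A gene needs some level in the control before it can fall by the required amount on this scale, so this follows in part from the rule.

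Over the means of the 7 groups at 3h and 24h that the rule did not use, the median Pearson r of the 325 pairs of members was 0.56, and 294 pairs were positive. Between members and the genes with a mean of at least 1 FPKM the median was -0.05. These are descriptions over 7 points that share libraries and normalization, with no p. ABA 24h as labelled is among the 7 groups, and the values were not computed without it. PH02Gene32696 and PH02Gene25695 were most like the others, with a median r of 0.77 with the remaining members. The least alike were newGene_4842, at 0.02, and PH02Gene10661, at 0.19, which was called higher than CK 24h under NaCl and in ABA 24h as labelled, but not in PEG 24h.

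Genes that met only one of the conditions are given beside the members, with no test of the difference. Of 1337 tested genes that met only the PEG condition, 31.7% were called higher than CK 24h in PEG 24h, as were 65.8% in NaCl 24h and 49.1% in SA 24h. For 1818 genes that met only the SA condition these shares were 7.48%, 6.22% and 1.21%, and 58.6% of them were called lower in SA 24h. The corresponding shares of the 26 members called higher were 69.2%, 92.3% and 19.2%, and 7.69% were called lower in SA 24h. In PEG 24h against SA 24h, 57.7% of the members, 13.3% of the genes with only the PEG condition and 50.7% of those with only the SA condition were called higher. Called lower in NaCl 3h than in ABA 3h were 42.3%, 8.83% and 42.6%, in the same order. Called higher than CK 3h, which the rule used, were 42.3%, 80.8% and 0.275% in NaCl 3h, and 73.1%, 60.1% and 4.07% in ABA 3h.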

How the data were processed

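RNA of 34 leaf libraries in 11 labelled groups was sequenced. Per the submitters' processing notes HISAT2 and DESeq2 were used. Versions, the read counter, the genome build and how reads with several matches were counted are not given in the sources read, so members with near-identical copies would be uncertain. The authors deposited raw read counts per gene without normalization, and FPKM values that they had computed. Per the paper the libraries are biological replicates.

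The members and lists were chosen with earlier results of these data known. FPKM served for the rule and for levels, and counts for tests. Counts of 30 libraries (0h left out) were filtered with filterByExpr (39089 genes, all 26 members), normalized by TMM and fitted with one mean per group in edgeR 4.0.16 (R 4.3.3, quasi-likelihood test, two-sided), with Benjamini-Hochberg adjustment over all genes tested. A gene was called at an adjusted p under 0.05 and at least 2-fold. Standard errors were approximated as the size of the log2 fold change divided by the root of edgeR's F statistic. Limits at 0 counts use 3 counts and cover counting error only. The 36 replicate pairs differed by more than sampling noise (chi-square per degree of freedom 5.86 to 321), and 0 library pairs were identical.

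Named members were the 2 with the largest difference between PEG 3h and SA 3h, the 2 most abundant in PEG 3h, the 2 just inside and 2 just outside the thresholds, and in each tested comparison up to 2 largest rises and 2 largest falls. Other values of these members in other groups were added after their values were seen. Alternatives were DESeq2 1.42.0, its size factors, no filter, only the 2 groups compared, all 34 libraries, a replicate block, limma 3.58.1 on log2(FPKM + 1) and log2(FPKM + 0.1), each library left out in turn, and other settings of the rule. Python 3.11.15, numpy 2.4.6, pandas 2.3.3 and matplotlib 3.10.9 made tables and plots.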

Additional observations from a re-analysis of the deposited data

Results flagged for a closer look

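Among the 13 named members, 8 had a library labelled 0h far outside the other 3 by Dixon's test at the 95% level, and in all 8 it was replicate 1. Chance alone marks about 1 in 20 groups, but the 8 genes share 1 library that was already seen to stand apart. They are therefore not separate tests, and their number is not weighed against chance. Replicate 1 held 59.0 FPKM of PH02Gene25695, 891 FPKM of newGene_32056, 140.2 FPKM of PH02Gene33633, 6.64 FPKM of PH02Gene29329, 190.03 FPKM of PH02Gene10661, 10.3 FPKM of PH02Gene32696, 25.95 FPKM of newGene_4842 and 43.2 FPKM of PH02Gene38280. The 0h libraries are outside the main comparisons, and the median over them of the members' median level was 33.3 FPKM, above every CK library.

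Whether the change from CK differed between both times was tested in edgeR for NaCl and ABA, the treatments that the rule did not use. For 3 named members all libraries of a treatment lay on one side of CK at 3h and on the other side at 24h, and this difference passed. The 24h minus 3h log2 fold change was 12.53 for newGene_32056 in NaCl (adjusted p = 1.43e-03), -2.89 for PH02Gene33633 in ABA (adjusted p = 1.70e-14) and -4.93 for PH02Gene48279 in ABA (adjusted p = 2.99e-19). These differences share CK 3h with the choice of the members, and the ABA values rest on the libraries labelled ABA 24h. For newGene_32056 the call at each time was lost when a single library was left out. Its difference between times was not refitted in that way.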

How the results depend on the processing

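The number of genes meeting the rule was 92 at a threshold of 1, 7 at a threshold of 2 and 80 with 0.1 FPKM added in place of 1, and 23 to 29 with a library left out. With 0h replicates 2 to 4 as the control 31 genes met it, of which 6 were among the 26 members, and on TMM-normalized CPM + 1 28 genes met it, of which 19 were, so membership depends on the control and the scale. Members called higher in ABA 24h were 5 under both limma settings in place of 10. In ABA 3h against CK 3h both limma settings called 1 member lower in place of 0. On FPKM the median log2 fold change of all genes moved from -0.06 to -0.18 in ABA 24h with 1 FPKM added, and to -0.33 with 0.1 added. With 0h replicates 2 to 4 in place of ABA 24h, 5 members were lower in place of 3, and the log2 fold change of newGene_32056 turned to -0.0022 and that of PH02Gene33633 to 0.44, and that of PH02Gene10903 was -0.98, short of 2-fold. The calls of PH02Gene10661 and PH02Gene36618 turned from higher to lower, at -1.70 and -1.60.

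With each library left out in turn, members called higher numbered 18 to 20 in PEG 24h, 23 to 24 in NaCl 24h, 5 to 6 in SA 24h, 9 to 11 in ABA 24h, 16 to 17 in PEG 24h against SA 24h, 3 to 4 in NaCl 3h against ABA 3h, 10 to 13 in NaCl 3h and 18 in ABA 3h. Members called lower numbered 1 in PEG 24h, 0 in NaCl 24h, 2 to 3 in SA 24h, 3 in ABA 24h, 0 in PEG 24h against SA 24h, 10 to 12 in NaCl 3h against ABA 3h, 0 to 1 in NaCl 3h (0 without NaCl 3h replicate 2) and 0 to 1 in ABA 3h (1 without ABA 3h replicate 2). The cause of these shifts was not tested.

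Same-numbered libraries were not treated as pairs in the main model: in no such pair did deviations from the group means have a correlation over 0.1 (-0.08 to 0.08). In ABA 3h and in ABA 24h every library nevertheless correlated most with the CK library of the same number, at 0.0054 to 0.0758. With the replicate block 19 members were higher in PEG 24h in place of 18, and the other 15 counts were the same as without it. Over all settings other than a left-out library, 127 counts stayed within 1.5 times of the main value, and the 8 that did not are given above. The lowest levels rest on few counts: PH02Gene40631, PH02Gene29329 and newGene_32056 had 0 counts in 1 or more libraries. All 3 had 0 counts in SA 3h replicate 3, which held 41295841 counts against 35569003 and 31198143 in replicates 1 and 2. Whether depth bears on these 0 counts was not tested.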
